A study of Homo sapiens with 2 samples.

Results

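The cells described here are mesenchymal cells of blood-generating heart-forming organoids (BG-HFOs) that carried much *LUM* transcript. *LUM* encodes lumican, a small leucine-rich proteoglycan that binds collagen fibrils. BG-HFOs are aggregates of human pluripotent stem cells embedded in Matrigel, in which bi-phasic WNT modulation and haemato-endothelial growth factors let heart, vessel, mesenchymal and blood tissue develop side by side. The organoids came from the line hES3 NKX2.5-eGFP, a human embryonic stem cell line with a reporter for the cardiac factor NKX2.5, and were taken on day 14. The data cover 2 organoids, named 32.7 and 33.10, with 1 droplet library each. They are replicates of 1 condition, no untreated or control organoid was analysed here, and all comparisons below are between classes of cells.

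The cells were chosen by their own measured counts of unique molecular identifiers (UMIs, 1 per captured transcript). A barcode had to have 500 to 9000 genes, under 15% mitochondrial UMIs, at least 4 *LUM* UMIs amounting to at least 1000 CPM (counts scaled to 1000000 UMIs per barcode), and at least 3 UMIs of *COL3A1* (type III collagen). It had to lack *CDH5*, *PTPRC* and *RUNX1*, which mark endothelium, blood and blood-forming cells, to have at most 3 UMIs of the cardiomyocyte (CM) gene *MYH6*, and to have at most 2 UMIs of the cell cycle genes *MKI67* and *TOP2A* together. These 8 genes are given as a description and were not tested. Of 36814 barcodes in the series, 1078 met the rule, 801 in organoid 32.7 and 277 in organoid 33.10. No member barcode was found in both libraries, although 100 barcodes of all were.

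Fibroblast-type mesenchyme builds the collagen and proteoglycan scaffold in which the other cells of an organ lie. In the embryonic heart it arises largely from the proepicardium and septum transversum (PE/ST), a mesothelial outgrowth marked by *WT1*, *TBX18* and *TCF21*, and *DCN* (decorin), *COL1A1* and *PDGFRA* are commonly used to recognize it. Lumican and decorin belong to the same family and their genes are neighbours. On GRCh38, *LUM* lies at chr12:91102629-91111494 and *DCN* at chr12:91140484-91183217, both on the minus strand.

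The LUM-high cells were 5.12% of the 15632 barcodes of organoid 32.7 that passed the filter on genes and mitochondrial UMIs (exact 95% binomial interval 4.78 to 5.48). They were 1.45% of the 19117 of organoid 33.10 (1.28 to 1.63). The intervals cover counting error only, and over organoids the share was 3.29% ± 2.60 (SD, n = 2). The LUM-high share was thus larger in organoid 32.7, beyond counting error, while the spread between organoids was nearly as large as the mean. The median LUM-high cell had 8138 UMIs and 3083 genes in organoid 32.7 and 7361 UMIs and 3157 genes in organoid 33.10. Lumican itself had a median of 1842 CPM in organoid 32.7 (1001 to 12077) and of 1435 in organoid 33.10 (1006 to 12291). At the threshold, 61 and 36 members lay between 1000 and 1100 CPM, and 72 and 44 barcodes between 900 and 1000, so the class is a range of lumican levels with no gap at its lower limit.

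*LUM* was also counted in cells of other classes. Of CMs, 15.6% in organoid 32.7 (median 13294 UMIs) and 8.92% in organoid 33.10 (median 14271) had a *LUM* UMI, and 12 and 4 of them passed the *LUM* part of the rule. Of endothelial cells, 8.13% in organoid 32.7 (median 16911 UMIs) and 4.02% in organoid 33.10 (median 15634) had a *LUM* UMI. Of these endothelial cells, 3 and 1 passed the *LUM* part of the rule. Whether these UMIs came from free RNA or from mixed droplets was not tested. Scrublet scores, which rank barcodes by likeness to simulated mixtures of cells, marked 4.87% and 2.17% of the LUM-high cells among the top scores.

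The label of a fibroblast-like mesenchyme was checked against levels summed over the cells of a class, also as CPM. *DCN*, named as a marker of the class but not used to choose it, was at 662 CPM in the LUM-high cells of organoid 32.7 and 377 in those of organoid 33.10. It was at 20.5 and 4.55 CPM in CMs and 6.48 and 2.74 in endothelial cells. *COL1A1*, the main chain of type I collagen, was at 1497 and 1847 CPM in LUM-high cells against 229 and 208 in CMs. *PDGFRA*, a receptor of fibroblast precursors, was at 128 and 162 CPM in LUM-high cells, but also at 131 and 120 in CMs. Set against CMs, *DCN* and *COL1A1* therefore fit the label, in cells already chosen for *LUM* and *COL3A1*. Other members of the marker list did not. *POSTN*, the matrix protein periostin of activated fibroblasts, was at 15.4 and 14.8 CPM, and *TWIST2*, a dermal fibroblast factor, at 0.541 and 0. The epithelial keratin gene *KRT19* was at 1172 and 871 CPM and *KRT8* at 668 and 826, and keratins are typical of mesothelium rather than of mature fibroblasts. The class is therefore called LUM-high mesenchyme here.

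The closest cells without much lumican are mesenchymal cells that met the same limits, had at least 3 *COL3A1* UMIs and 1000 CPM, but stayed under 1000 CPM of *LUM*. There were 1693 of these LUM-low cells in organoid 32.7 and 1755 in organoid 33.10, with medians of 8492 and 7886 UMIs. UMIs were summed per class and organoid and tested by the quasi-likelihood method of edgeR, with p-values adjusted after Benjamini and Hochberg over all genes, in 1 fit of 6 cell classes, so p-values describe the spread between the 2 organoids. In sums of cells, more cells expressing a gene and more transcript per cell cannot be told apart. Of 20623 genes tested outside the rule, 267 (1.29%) were higher and 431 (2.09%) lower in LUM-high cells, 698 in all (3.38%). With the organoid as a block, which pairs the classes of 1 organoid, 855 were higher and 1064 lower, and all of the 698 were among them. After removal of 10% of each library's free RNA profile, 78 were higher and 223 lower, and 48 of 88 genes named here that passed the test no longer did. With only the LUM-high and LUM-low sums in the fit, 33 of 88 no longer did, and none of these calls changed direction.

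Among the 12 genes with the largest rise, *FRZB* led. It encodes a secreted antagonist of WNT ligands and lies at chr2:182833275-182866637 on the minus strand. Its level was 433 and 179 CPM in the LUM-high cells of organoids 32.7 and 33.10 and 33.6 and 14.9 in LUM-low cells, so that both LUM-high sums lay above both LUM-low sums. The log2 fold change was 3.78 (SE 0.583, adjusted p = 0.0047, edgeR's quasi-likelihood test). *DCN* came next, with 662 and 377 CPM against 68.0 and 50.8, a log2 fold change of 3.24 (SE 0.516, adjusted p = 0.00563). *HAND1*, a basic helix-loop-helix factor of lateral plate mesoderm and of early heart and extraembryonic mesoderm, stood at 659 and 431 CPM against 181 and 133. Its log2 fold change was 1.90 (SE 0.219, adjusted p = 0.000982), and after removal of 10% of the free RNA profile it was 1.94 and did not pass (adjusted p = 0.212). The classes did not overlap in these genes, nor in 697 of the 698 called genes and 49.1% of all 20623 tested, so a lack of overlap adds nothing to the call. *FRZB* and *HAND1* are both among these 12 genes, and the 250 bases before their starts are shown as examples. Whether the 2 genes share a regulator was not tested. Both sequences are RefSeq windows on GRCh38.p14, minus strand, written 5′ to 3′, with any match to GATAA (either strand), the core bound by GATA factors, in capitals.
FRZB, chr2:182866638-182866887: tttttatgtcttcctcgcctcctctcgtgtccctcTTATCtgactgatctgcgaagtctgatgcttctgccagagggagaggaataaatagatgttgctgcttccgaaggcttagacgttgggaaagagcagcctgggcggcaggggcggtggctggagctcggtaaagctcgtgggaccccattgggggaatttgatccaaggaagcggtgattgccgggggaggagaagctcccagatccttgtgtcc
HAND1, chr5:154478228-154478477: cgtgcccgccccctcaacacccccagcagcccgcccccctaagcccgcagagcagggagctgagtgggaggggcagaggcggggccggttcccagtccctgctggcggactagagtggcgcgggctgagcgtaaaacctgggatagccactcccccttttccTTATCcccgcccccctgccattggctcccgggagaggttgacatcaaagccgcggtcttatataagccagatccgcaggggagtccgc
Each window held 1 such match, and 20.4% of all 35116 windows of this length held at least 1. Neither window held CANNTG, the E-box letters recognized by basic helix-loop-helix factors, which 61.8% of all windows held. Windows were found for 7 of the 12 genes with the largest rise and for 9 of the 12 with the largest fall. GATAA was present in 4 and 8 of them, and CANNTG in 3 and 8.

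The other genes of this group included several with known roles in secretion and in signalling. *CLU* (clusterin, a secreted chaperone) was at 133 and 156 CPM against 39.3 and 29.9. *FST* (follistatin, which binds activins) was at 78.5 and 35.2 CPM against 16.1 and 4.38. *TMEM88*, a membrane inhibitor of WNT signalling known from cardiac differentiation, was at 345 and 195 CPM against 75.8 and 50.5. *CLU*, *FST* and *TMEM88* were each higher in both organoids, with log2 fold changes of 2.14, 2.63 and 2.21. The remaining 6 genes were *NTM* (neurotrimin, an adhesion molecule), *LMCD1* (a LIM domain co-regulator), *PDZRN4*, *SLC9A3R1* and *GRIP1* (scaffold proteins) and *CD24* (a surface glycoprotein), with log2 fold changes between 1.68 and 2.48. Of the 12 genes, 7 passed the test under every alternative that could be tested.

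Among the 12 genes with the largest fall, *CCL21*, a chemokine of lymphatic and stromal cells, was at 2.03 and 8.90 CPM in LUM-high cells and 77.6 and 105 in LUM-low cells (log2 fold change -4.40, SE 0.53). *C7*, a complement component, was at 9.20 and 2.97 CPM against 134 and 174 (-4.28, SE 0.397). *COL8A1*, a short-chain collagen of vessels and valves, was at 15.8 and 16.9 CPM against 136 and 198 (-3.26, SE 0.284). Fitted in organoid 32.7 and in 33.10 alone, the log2 fold change of *CCL21* was -5.11 and -3.53, and that of *C7* was -3.72 and -5.84. *PLN* and *SLC8A1*, which encode phospholamban and the sodium-calcium exchanger, fell by 2.66 and 2.65 on the log2 scale, as did *TECRL*, a gene linked to cardiac arrhythmia (2.73). *CTNNA2* (a neural catenin), *ST6GALNAC5* (a sialyltransferase), *CCDC141*, *GATM* (creatine synthesis) and *NTS* (neurotensin) were also in this group. Of the 12 genes, 9 passed under every alternative that could be tested.

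**Figure D1:**
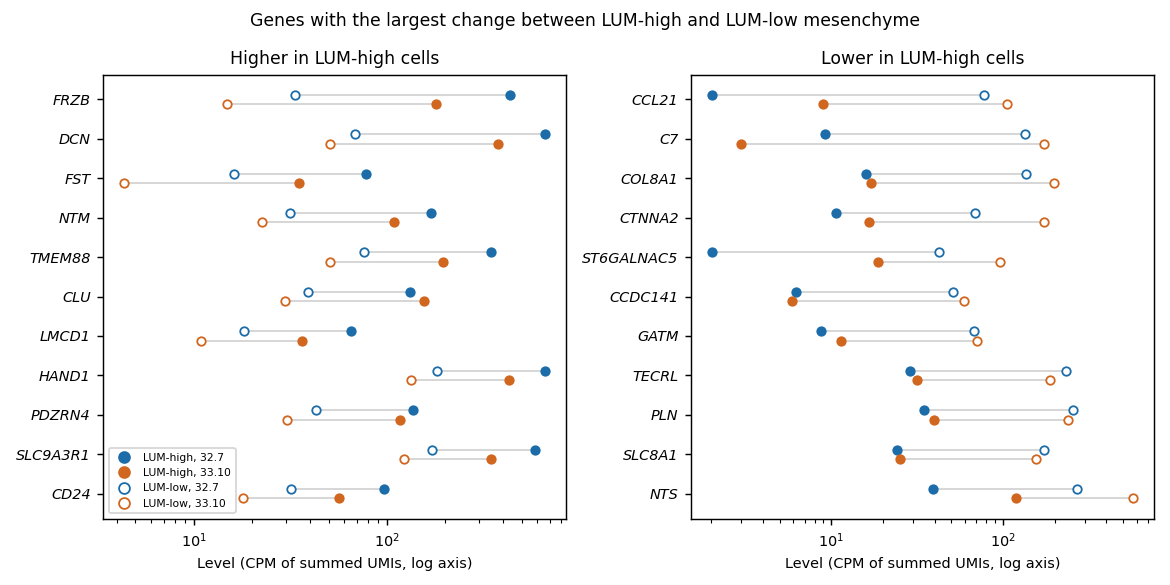
Levels of the 11 genes with the largest change in each direction, in CPM of summed UMIs on a log axis, with 1 point per organoid and class. Filled points are LUM-high and open points LUM-low cells, and for each gene both filled points lie on the same side of both open points, as they did in 49.1% of all genes tested.

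CM genes moved with this comparison, and LUM-low cells held more of them. The 9 CM markers summed to 1307 and 1221 CPM in LUM-high cells and to 1871 and 1569 in LUM-low cells, with *TNNI1* as the most abundant (783 and 564 CPM in LUM-high cells, 572 and 444 in LUM-low cells). *MYH7* was at 0 in the LUM-high cells of organoid 33.10. Of the 8 markers outside the rule, 4 fell and none rose (*TNNT2*, *ACTN2*, *TTN* and *NKX2-5*). *TNNT2*, cardiac troponin T, was at 108 and 137 CPM against 495 and 443 (log2 fold change -1.86, SE 0.205). The comparison was therefore also made with at most 2 *TNNT2* UMIs in the cells of both classes, which left 725 and 245 LUM-high and 1116 and 1127 LUM-low cells. This alternative, chosen after the data were seen, called 85 genes higher and 102 lower, of which 179 were among the 698. It called 9 of the 12 genes with the largest rise (not *FST*, *PDZRN4* and *CD24*, whose log2 fold changes were then 2.37, 1.64 and 1.48). It also called 11 of the 12 with the largest fall (not *ST6GALNAC5*, whose log2 fold change was then -2.57). Of 88 genes named from the comparison and fitted here, 49 were no longer called, and none changed direction. *PLN*, *SLC8A1* and *TECRL* then had log2 fold changes of -1.89, -1.43 and -2.07.

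Of the markers of lineages other than CMs, *KDR* alone passed the test. That gene encodes the VEGF receptor 2, present in endothelium and in early mesoderm, and was at 134 and 142 CPM against 78.9 and 68.8 (log2 fold change 0.99, SE 0.192, adjusted p = 0.0153, edgeR's quasi-likelihood test). It was at 985 and 997 CPM in endothelial cells. With at most 2 *TNNT2* UMIs its log2 fold change was 0.62 and it did not pass (adjusted p = 0.152). The 9 endothelial markers summed to 528 and 596 CPM in LUM-high cells and to 533 and 493 in LUM-low cells, most of it *EGFL7* (311 and 356 CPM in LUM-high cells). *CDH5* was at 0 by the rule and *CLDN5* at 0.541 and 0 CPM. The fetal globin gene *HBG2* was at 312 and 386 CPM in LUM-high cells against 289 and 526. The 5 megakaryocyte markers summed to 116 and 189 CPM against 257 and 437, with *PPBP* (51.9 in organoid 32.7) and *PF4* (99.1 in organoid 33.10) leading. *PPBP* fell with the block (adjusted p = 0.0257, edgeR's quasi-likelihood test; 0.203 without), as did the epithelial marker *EPCAM* (0.0409 and 0.137). The 7 myeloid markers summed to 14.5 and 2.54 CPM against 37.2 and 6.24, and *CD14*, *C1QA*, *C1QB* and *LYZ* were at 0 in the LUM-high cells of organoid 33.10. The 9 foregut endoderm markers summed to 139 and 28.0 CPM against 85.7 and 41.5, led by *APOA1* (52.3 and 16.9), and the 5 neural markers to 63.3 and 78.0 against 101 and 124, nearly all *STMN2* (62.2 and 78.0 CPM in LUM-high cells). *FOXA2*, *SOX10* and *SOX2* were at 0 in LUM-high cells. What these transcripts contributed to the other results was not tested.

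Matrix genes were described by lists that name their roles, beside the median log2 fold change of all genes tested, -0.04. Small leucine-rich proteoglycans, the family of lumican, showed a narrow pattern. Of 11 tested members outside the rule, 2 rose, none fell, and the median log2 fold change was 0.20. The 2 were *DCN* and *FMOD* (fibromodulin), the latter at 37.2 and 64.0 CPM against 18.8 and 22.4 (log2 fold change 1.33, SE 0.247, adjusted p = 0.0121). The chromosome 12 relatives *KERA* and *EPYC* were at 0.135 and 0 and at 0.406 and 0.424 CPM in LUM-high cells, and *OGN* and *ASPN* at 4.87 and 3.81 and at 2.98 and 1.69, the last 2 being on chromosome 9.

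The 10 fibrillar collagens outside the rule summed to 3081 and 3588 CPM in LUM-high cells and to 2801 and 2687 in LUM-low cells, and their median log2 fold change was 0.25. Of these, only *COL27A1* passed the test, and it fell (39.9 and 51.7 CPM against 67.9 and 83.3). *COL1A1* was at 1497 and 1847 CPM against 1362 and 1287, and its adjusted p was 0.155 (edgeR's quasi-likelihood test), or 0.0451 with the organoid as a block. With that block *COL1A1*, *COL1A2* and *COL5A1* rose. These values depend on the choice of LUM-low cells, which alone had to have at least 1000 CPM of *COL3A1*. Without that minimum *COL1A1* and *COL5A1* passed as higher (log2 fold changes 0.59 and 0.77, adjusted p = 0.0472 and 0.0341) and *COL27A1* did not pass (-0.63, adjusted p = 0.0641), and the median was 0.38. With the minimum in both classes *COL27A1* alone passed. Of 15 collagen VI and fibril-associated chains, *COL21A1* rose (162 and 172 CPM against 85.8 and 80.4), while *COL8A1*, *COL14A1*, *COL6A6* and *COL9A1* fell. *COL14A1*, a chain of interstitial connective tissue, was at 24.1 and 34.7 CPM against 91.3 and 114. None of the 18 basement membrane genes passed, and their median log2 fold change was -0.28. With the block, 1 rose (*LAMA5*) and 4 fell (*COL4A5*, *COL4A6*, *NID1* and *AGRN*).

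Genes that process or decorate the matrix were divided. Among 22 collagen-processing genes, the crosslinking oxidases *LOX* and *LOXL1* rose (43.3 and 65.7 against 18.5 and 22.6 CPM for *LOX*), whereas the procollagen protease gene *ADAMTS3* fell (25.7 and 36.9 against 93.1 and 167 CPM). Among 15 matricellular genes, *SPARC* and *TGFBI*, which encode collagen-binding proteins, rose and *THBS4* fell. *TGFBI* was at 366 and 401 CPM against 185 and 165, and *SPARC* at 878 and 869 against 606 and 557. Among 16 elastic fibre and microfibril genes, *MFAP4* rose, while *FBLN2*, *EFEMP1*, *LTBP1* and *EMILIN2* fell. *LTBP1*, which tethers latent TGF-β to the matrix, was at 83.5 and 80.9 CPM against 229.8 and 219.6. Of 16 matrix proteases and inhibitors, *ADAMTS9* rose, and of 16 large proteoglycans *SDC4* rose. With at most 2 *TNNT2* UMIs, the calls that held in all of these matrix lists were *DCN*, *FMOD*, *COL21A1*, *COL8A1*, *COL14A1* and *ADAMTS3*. The other matrix genes named here did not pass, though each kept its direction. Of those higher, *LOX*, *LOXL1*, *TGFBI*, *SPARC*, *MFAP4*, *ADAMTS9* and *SDC4* then had log2 fold changes of 1.22, 0.74, 0.87, 0.60, 1.31, 0.92 and 0.46 (adjusted p = 0.0671 to 0.192). Of those lower, *EFEMP1*, *LTBP1*, *COL9A1*, *COL6A6*, *EMILIN2*, *THBS4*, *FBLN2* and *COL27A1* had -2.74, -0.78, -3.15, -0.87, -0.87, -0.78, -0.69 and -0.51 (adjusted p = 0.0767 to 0.210).

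Mesothelial and PE/ST genes did not move as a group. Of 16 tested epicardial and mesothelial genes, 3 rose and 2 fell. The keratin gene *KRT19* was at 1172 and 871 CPM in LUM-high cells against 428 and 362 (log2 fold change 1.47, SE 0.183, adjusted p = 0.00137, edgeR's quasi-likelihood test), and *KRT18* and *PODXL*, the gene of a surface sialomucin, also rose. *TBX18* was at 5.14 and 8.90 CPM against 43.5 and 44.4 (log2 fold change -2.68, SE 0.268). *TCF21*, needed for cardiac fibroblasts to form, was at 64.1 and 78.0 CPM against 145 and 155 (-1.01, SE 0.152). *WT1* was at 36.1 and 72.9 CPM against 84.9 and 104, which did not pass (adjusted p = 0.24) except with the block (adjusted p = 0.006). The LUM-high cells thus carried more *KRT19* and *KRT18* and less *TBX18* and *TCF21* than LUM-low cells, of which *KRT19* and *TBX18* were also called with at most 2 *TNNT2* UMIs. Of 14 septum transversum and hepatic stellate genes, *PDPN* rose (26.5 and 4.66 CPM against 4.40 and 2.22) and *GATA4* fell. Of 13 mural and smooth muscle genes, *RGS5*, *CNN1* and *MYOCD* fell and none rose, and none of these 3 passed with at most 2 *TNNT2* UMIs (log2 fold changes -0.35, -0.34 and -0.96). *KRT18*, *PODXL*, *PDPN* and *GATA4* did not pass then either, at 0.49, 1.77, 2.21 and -0.82.

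Patterning factors moved in both directions. Of 38 tested mesenchymal factors, those that rose included *HAND1* and *PITX1*, and those that fell *GATA4*, *TCF21*, *EBF1* and *NR2F2*. *PITX1*, a homeodomain factor of hindlimb mesenchyme, was at 11.8 and 11.0 CPM against 1.87 and 2.94. *GATA4*, a zinc finger factor of heart and septum transversum, was at 128 and 237 CPM against 369 and 434. *PRRX1*, a factor of limb and craniofacial mesenchyme, was at 46.4 and 55.5 CPM against 73.6 and 87.4, with an adjusted p of 0.29 without and 0.047 with the block. *HAND1* and *NR2F2* were also called with at most 2 *TNNT2* UMIs, and *PITX1* and *EBF1* were not (log2 fold changes 1.71 and -1.12, adjusted p = 0.0716 and 0.0831).

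HOX genes, which mark position along the body axis, were called in the HOXB cluster. Of 13 tested, 7 rose and none fell, and all 7 belong to the HOXB cluster on chromosome 17 (*HOXB1* at chr17:48528526-48531011 to *HOXB9* at chr17:48621156-48626358). Most of the 13 were HOXB genes, and most HOX genes of the other clusters were too low to be tested. The median log2 fold change of the 13 was 1.27. The 9 HOXB genes summed to 410.0 and 303 CPM in LUM-high cells and to 177 and 136 in LUM-low cells. The other 20 HOX genes in the table summed to 7.44 and 5.93 CPM in LUM-high cells and to 3.55 and 2.40 in LUM-low cells, so they too were higher in both organoids, at much lower levels. Whether the clusters differ in their change was not tested. *HOXB2* was at 74.5 and 43.6 CPM against 25.7 and 16.5 (log2 fold change 1.63, SE 0.302, adjusted p = 0.0121). *HOXB4* was at 67.9 and 54.7 CPM against 31.0 and 24.1 (1.27, SE 0.21, adjusted p = 0.00681, same test). *HOXB8* was at 42.1 and 35.2 CPM against 15.7 and 9.60 (1.72, SE 0.362, adjusted p = 0.0226). *HOXB2*, *HOXB3*, *HOXB4* and *HOXB5* were also called with at most 2 *TNNT2* UMIs. *HOXB6* and *HOXB8* were not (log2 fold changes 0.88 and 1.25, adjusted p = 0.249 and 0.129), and *HOXB1* was too low to be fitted there. *HOXB7* (42.9 and 32.2 CPM against 22.9 and 21.2) passed with the block only (adjusted p = 0.00291, edgeR's quasi-likelihood test; 0.0529 without). Other classes also carried the cluster. Endothelial cells summed to 394 and 345 CPM and CMs to 121 and 87.3. The spans of *HOXB3* and *HOXB7* overlap neighbouring HOXB genes on the same strand, so the division of reads among them is uncertain.

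**Figure D2:**
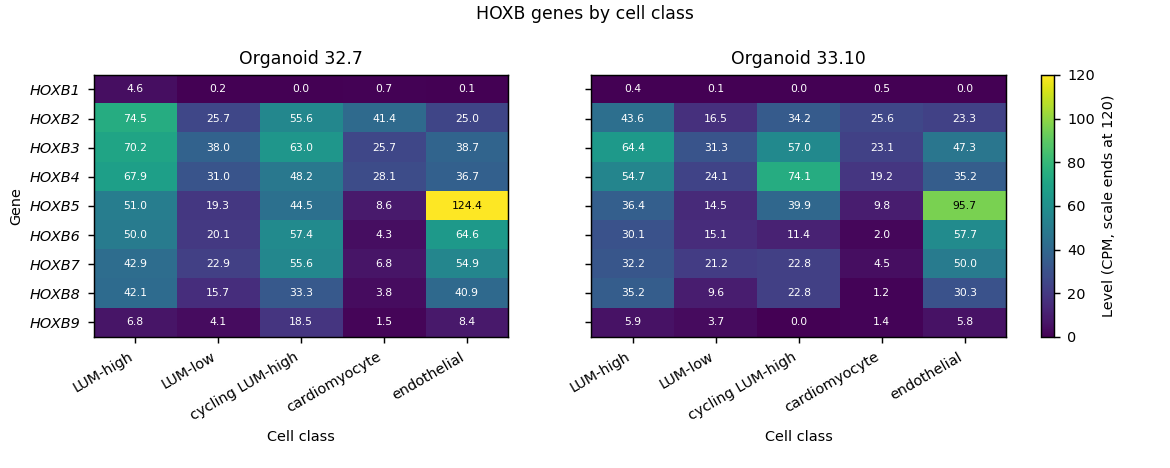
Levels of the 9 HOXB genes (rows) in 5 cell classes (columns), 1 panel per organoid, in CPM of summed UMIs, with each value printed in its cell. *HOXB2* to *HOXB8* are higher in LUM-high than in LUM-low cells in both organoids, and *HOXB5* is highest in endothelial cells.

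Signalling genes were mixed. Among 17 WNT ligands and antagonists, *FRZB* and *RSPO1* rose, and *SFRP1*, *SFRP5* and *DKK1* fell, so secreted WNT antagonists stood on both sides. *FRZB* and *DKK1* held with at most 2 *TNNT2* UMIs, and *RSPO1*, *SFRP1* and *SFRP5* did not (log2 fold changes 0.86, -0.59 and -1.72, adjusted p = 0.0821 to 0.164). *DKK1* was at 26.2 and 30.1 CPM against 74.8 and 87.1. *SFRP1* was at 260.1 and 298 CPM against 556 and 484. Among 23 BMP and TGF-β genes, those that rose included the antagonist *FST*, and the ligands *BMP2*, *GDF10* and *INHBA* fell, and none of these 4 passed with at most 2 *TNNT2* UMIs. The log2 fold changes of *FST*, *BMP2*, *GDF10* and *INHBA* were then 2.37, -0.47, -1.67 and -1.81, against 2.63, -1.07, -1.97 and -2.51 without that limit. Among 20 FGF, IGF and PDGF genes, *IGFBP3*, an IGF-binding protein, was at 1061 and 1202 CPM against 514 and 611, while *FGF10* and *PDGFD* fell. With at most 2 *TNNT2* UMIs *IGFBP3* was still called, and *FGF10* and *PDGFD* did not pass (log2 fold changes -0.57 and -1.11, adjusted p = 0.0979 and 0.105). Of 27 vascular and blood niche factors, *ANGPTL2* rose and *JAG1*, a NOTCH ligand, fell (20.6 and 32.2 CPM against 69.3 and 64.9). The niche factors *KITLG* (14.7 and 25.8 CPM against 17.0 and 10.5) and *CXCL12* (60.9 and 88.6 against 91.4 and 79.2) overlapped between the classes. *DLK1*, a non-canonical NOTCH ligand, was at 4167 and 3871 CPM against 3294 and 2933 and did not pass (adjusted p = 0.31).

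Complement, hypoxia, cell cycle and stress genes were also examined. Of 11 complement and serum-type genes, *C7* and *CFI*, a complement protease, fell and *CLU* rose. *CFI* was at 6.76 and 8.47 CPM against 50.6 and 43.7. Of 11 hypoxia-response genes, *SLC2A1* (the glucose transporter GLUT1), *NDRG1* and *CA9* rose and none fell. *SLC2A1* was at 214 and 145 CPM against 96.9 and 90.7 and was the only 1 of the 3 called with at most 2 *TNNT2* UMIs, where *NDRG1* and *CA9* had log2 fold changes of 1.02 and 2.14 (adjusted p = 0.0565 and 0.0759). With the block, 4 genes of the hypoxia list rose and 1 fell, the additional genes being *ANKRD37* and *VEGFA*. Of 21 cell cycle genes outside the rule, only *CDKN1C*, an inhibitor of cyclin-dependent kinases, passed, with 747 and 340.2 CPM against 231 and 181. It did not pass with at most 2 *TNNT2* UMIs (log2 fold change 1.41, adjusted p = 0.0806), and the cyclin gene *CCNE1* passed with the block only (adjusted p = 0.0118, edgeR's quasi-likelihood test). Of 11 immediate early and heat shock genes, which respond to dissociation, *JUN* passed as lower, but with at most 2 *TNNT2* UMIs its log2 fold change was -0.24 and it did not pass (adjusted p = 0.429). No gene of the retinoid or the skeletal list passed, of 13 and 11 tested. Of 12 fibroblast markers, *DCN*, *THY1* and *MFAP4* rose and *TCF21* fell, and *DCN* alone was called with at most 2 *TNNT2* UMIs, where *THY1* and *TCF21* had log2 fold changes of 0.57 and -0.72 (adjusted p = 0.0987 and 0.052).

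The direction of these genes was also read along lumican itself, by dividing mesenchymal cells into 5 ranges of their *LUM* share. This is a description of the same cells, with no test. *DCN* was at 17.1 and 7.13 CPM in cells with no *LUM* UMI, at 147 and 143 in those from 500 to under 1000 CPM, and at 1146 and 925 in those with 2000 or more. *KRT19* went from 356 and 284 CPM to 1710 and 1421 between the lowest and highest range. *TBX18* went from 84.3 and 68.1 CPM to 2.50 and 8.98. The levels changed step by step and also among the LUM-low ranges, and the direction from the lowest to the highest range was alike in both organoids. *TNNT2* was concentrated in the lowest range, at 980 and 699.6 CPM, against 117 and 142 between 1000 and 2000 CPM. *COL1A1* showed little slope in organoid 32.7, with 1256 CPM in the lowest and 1495 in the highest range, and more in organoid 33.10 (1094 and 1912).

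**Figure D3:**
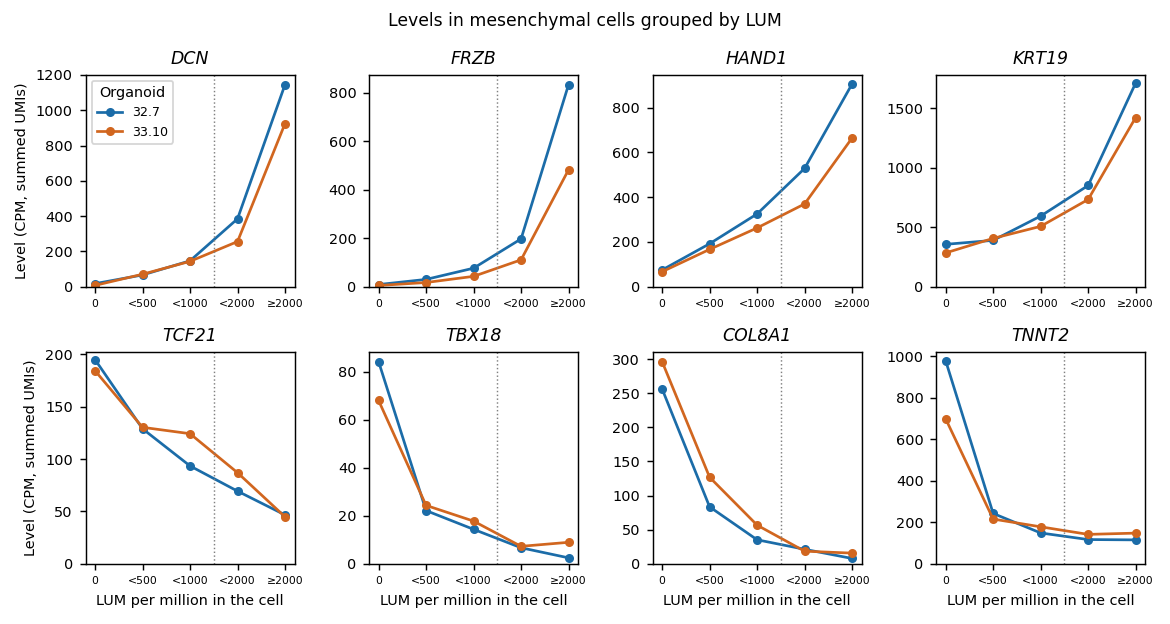
Levels of 8 genes (CPM of summed UMIs, vertical axes from 0) in mesenchymal cells grouped by their *LUM* level (horizontal axis, CPM per cell), 1 line per organoid, with a dotted line at the threshold of 1000 CPM. *DCN*, *FRZB*, *HAND1* and *KRT19* rise and *TCF21*, *TBX18*, *COL8A1* and *TNNT2* fall along the axis, apart from slight upturns of *TBX18* and *TNNT2* in the last range of organoid 33.10, with most of the fall of *TNNT2* between the lowest range and the next.

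The LUM-high cells that were left out for *MKI67* and *TOP2A* gave a second comparison, of cells that differ by the rule in the cell cycle. There were 36 of them in organoid 32.7 and 16 in organoid 33.10. They had medians of 14249 and 9710 UMIs, more than the other LUM-high cells. In the same fit, 96 genes (0.465%) were higher and 392 (1.90%) lower in LUM-high cells than in cycling ones, 488 in all (2.37%), and the median log2 fold change of all genes was 0.22. The genes with the largest fall were those of mitosis. The classes were split by *MKI67* and *TOP2A*, so the fall of other cell cycle genes follows from that split and is a description. *CENPF*, a kinetochore protein gene, was at 10.0 and 18.2 CPM against 609.5 and 633 (log2 fold change -5.46, SE 0.279). *UBE2C*, which encodes a ubiquitin enzyme of mitotic exit, was at 7.44 and 10.6 CPM against 543 and 548. *NEK2*, *KIF20A*, *PIMREG*, *DLGAP5*, *KIF14*, *KIF23*, *CDC20*, *CDCA2*, *DEPDC1* and *AURKB* fell by 5.66 to 6.97 on the log2 scale. Their size differed between organoids, with -7.91 in 32.7 and -5.74 in 33.10 for *NEK2* and -6.82 and -4.44 for *KIF14*, and LUM-high cells of 33.10 had no UMI of *PIMREG*. Of 21 cell cycle genes outside the rule, 13 fell. The exception that rose was *CCND2*, cyclin D2, at 149 and 156 CPM against 40.8 and 51.3.

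Few matrix genes passed the test between LUM-high and cycling LUM-high cells. Of 10 fibrillar collagens outside the rule, *COL1A2* alone passed, with 960.4 and 955 CPM in LUM-high and 669 and 645 in cycling cells (log2 fold change 0.66, SE 0.139, adjusted p = 0.0237, edgeR's quasi-likelihood test). The collagen prolyl hydroxylase gene *P4HA1* and the isomerase gene *PPIB* rose with it. *DCN* was at 317 and 245 CPM and *FRZB* at 178 and 200 CPM in cycling cells, against 662 and 377 and against 433 and 179, and neither passed. Among genes with the largest rise were *CNTN5*, an adhesion molecule of neurons (240.5 and 195 CPM against 29.6 and 57.0), and *ERBB4*, a neuregulin receptor (70.9 and 77.1 against 16.7 and 17.1). *CNTN5* passed under 8 of the 10 alternatives that could be tested and *ERBB4* under 9. The cycling cells held 539759 and 175325 UMIs in all, so these low levels in cycling cells rest on few UMIs. Of the 12 genes with the largest rise, *ADAMTS6* alone passed under all 10, and *LGALS3* and *TTN* passed under 5 and 4. With *LUM* of at least 2000 CPM, 17 of the 40 genes named from this comparison kept their call, 21 were no longer called and 2 changed direction. *TTN*, *TNNT2* and *RYR2* also rose, and the 9 CM markers summed to 710 and 548 CPM in cycling cells against 1307 and 1221. What these CM transcripts contributed was not tested. With the block, *TNNT2* and *TTN* did not pass (adjusted p = 0.0589 and 0.0573, edgeR's quasi-likelihood test). Their log2 fold changes were then 1.30 and 1.65, against 1.32 and 1.66 without it. The other 6 of the 12 genes with the largest rise were *LGALS3*, *GXYLT2*, *AEBP2*, *PTPRD*, *CDC42EP5* and *ADAMTS6*, with log2 fold changes between 1.32 and 1.55. *KRT19* rose here too (1172 and 871 CPM against 482 and 576). *SEMA3D*, a guidance factor, and the myeloid marker *CD14* passed as lower, but both were at 0 in the cycling cells of organoid 33.10. The remaining 25 lists, HOX genes among them, had no call. A lack of a call for a matrix gene is not evidence that it was equal, given the small number of cycling cells.

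Clustering of the LUM-high cells alone gave 7 sub-clusters, numbered here and not named as cell types. The leading genes formed the clusters and are not tested. Sub-cluster 1 (19.7% of the members of organoid 32.7 and 26.0% of those of 33.10) was led by *TAC1*, the tachykinin precursor, at 859 and 1179 CPM against 54.4 and 50.8 in the other members. *TNC* (tenascin C) and *NGFR* (a neurotrophin receptor) were also among its leading genes. Its *DCN* level was only 99.8 and 83.6 CPM and its *FRZB* level 49.9 and 37.7, although its median *LUM* was 1520 and 1396 CPM. High lumican therefore occurred without high decorin in these cells.

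Sub-cluster 2 was nearly all from 1 organoid, with 220 cells (27.5%) in 32.7 and 9 (3.25%) in 33.10. It had the highest median *LUM* (3003 and 3125 CPM), *DCN* (1381 and 1839 CPM), *KRT19* (2253 and 2014) and *HAND1* (1066 and 1086) of all sub-clusters. *FRZB*, *PODXL* and *PDPN*, which encodes the mucin-type protein podoplanin, were among its leading genes, with *MGP*, *SLPI* and *NPY*. *PDPN*, *SLPI* and *NPY* were at 87.4, 64.5 and 346 CPM in its cells of organoid 32.7 and at 0 in the 9 of organoid 33.10. Sub-cluster 3 (18.4% and 22.7%) was led by neuronal-type adhesion and synapse genes, *SYN3*, *NTM*, *GRIP1* and *GRIA1*, with *DCN* at 899.7 and 845 CPM. Its cells in organoid 32.7 were the deepest, with a median of 12479 UMIs.

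Sub-cluster 4 (13.9% and 29.6%) was led by *SCN7A*, *DES* (desmin), *HGF* (hepatocyte growth factor) and *BMP10*, and had the highest *GATA4* (246 and 338 CPM) and *TCF21* in organoid 32.7 (148.5 CPM). Sub-cluster 5 (11.4% and 6.50%) was led by *SST* and *PENK*, precursors of the neuropeptides somatostatin and enkephalin. *SST* was at 16.9 and 336 CPM against 13.3 and 0.450 in the other members, so that its lead rested on the 18 cells of organoid 33.10. *PENK* was at 164 and 365 CPM against 73.4 and 43.2. Its *DLK1* level was 8152 and 8089 CPM against 3704 and 3605 in the other members. Sub-cluster 6 (6.37% and 6.14%) carried globins, *HBG2* at 4775 and 3285 CPM, and in organoid 32.7 also *AFP* (890.3 CPM) and *SERPINA1*, transcripts of other lineages. Scrublet marked 45.1% and 29.4% of its cells, more than in any other sub-cluster of the same organoid. Sub-cluster 7 (2.87% and 5.78%) was led by *DIAPH3*, *PCLAF*, *CLSPN* and *MCM4*, genes of DNA replication and division that the rule did not use, with *DIAPH3* at 299 and 431 CPM against 11.3 and 12.6 in the other members. The order of *DCN* was alike in both organoids for sub-clusters 1 to 4.

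**Figure D4:**
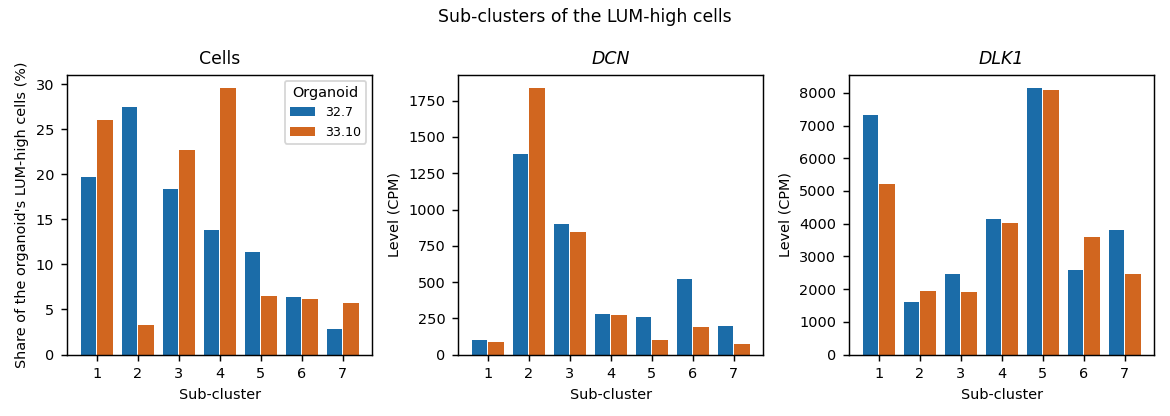
Share of each organoid's LUM-high cells in sub-clusters 1 to 7 (left, %), and levels of *DCN* and *DLK1* in each (CPM of summed UMIs), with 1 bar per organoid. Sub-cluster 2 holds 27.5% of the members of organoid 32.7 and 3.25% of those of 33.10, and *DCN* is highest there while *DLK1* is highest in sub-cluster 5.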

How the data were processed

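BG-HFOs 32.7 and 33.10 (day 14) gave 1 3′ droplet library each. The deposited counts came from Cell Ranger 7.0.0, run by the authors on GRCh38 with intronic reads included. They are whole UMI counts per gene and barcode, before the study's depth equalization and removal of free RNA. Per the study's methods, organoids were grown separately and each counts as a biological unit. Organoid 32.7 had 191152562 UMIs in 16866 barcodes and 33.10 had 233818881 in 19948. The rule for the cells and the gene lists were chosen with earlier results of these data known.

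UMIs were summed into 12 sums (6 classes in 2 organoids) and fitted with edgeR 4.0.16 (R 4.3.3; quasi-likelihood test, TMM, low genes filtered, Benjamini-Hochberg threshold 0.05), after a test on simulated counts. The standard error is the log2 fold change divided by the square root of F. The organoid pairs the classes, and deviations of LUM-high and LUM-low sums from their class means correlated with r = 0.58 over 7933 genes (LUM-high and cycling, 0.05, and with endothelial and CM sums, 0.42 each). Named genes were, per comparison and direction, the 12 with the largest log2 fold change among those past the threshold, with the same sign in both organoids and at least 50 CPM in the higher class (no rule, ribosomal, mitochondrial, antisense or clone-named genes), plus members of the 32 lists with the largest change, highest level or a defining role. Sub-clusters came from scanpy 1.11.5 (2000 variable genes, 15 components, 15 neighbours, Leiden resolution 0.5). Doublets were kept, and the top Scrublet scores (0.8% of barcodes per 1000) marked. Gene positions are from the GENCODE annotation of GRCh38, matched by Ensembl identifier. Alternatives were DESeq2 1.42.0, other scaling, filters, classes, thinned cells and removal of 10% of the free RNA profile. Deposited feature and barcode tables gave names only. Some genes, and values that rest on them, are not reported here.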

Additional observations from a re-analysis of the deposited data

How the results depend on the processing

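The 698 calls between LUM-high and LUM-low cells became 1919 with the organoid as a replicate block, 1810 without a filter on low counts, 1119 with DESeq2, 2086 with *LUM* of at least 2000 CPM, 1867 against cells with no *LUM* UMI, 330 with only these classes fitted, 301 after removal of 10% of free RNA, and 187 with at most 2 *TNNT2* UMIs (chosen after the data were seen). Between LUM-high and cycling cells, the 488 calls became 934 without the filter, 227 in cells thinned to 5000 UMIs, and 101 with *LUM* of at least 2000 CPM. The block ended the calls of *TNNT2* and *TTN* there (log2 fold changes 1.30 and 1.65 with it) and no other named call. The log2 fold change of *SEMA3D* against cycling cells turned to 6.87 with the higher *LUM* limit and ranged from -4.72 to 7.90 with 1 organoid left out, and that of *CD14* turned to 6.51 without top Scrublet scores and 7.64 with the higher limit. The cause of these changes was not tested. Sub-clusters numbered 4 at resolution 0.3, 12 at 1.0, and 5 to 6 with 1 organoid left out. The share of LUM-high cells in organoids 32.7 and 33.10 was 7.37% and 2.67% with a *LUM* limit of 500 CPM and 2.21% and 0.345% with 2000 CPM, and 1.45% to 5.12% with 1 organoid left out. Calls could not be counted with 1 organoid left out, as no replicate remains, but none of 89 named genes changed direction against LUM-low cells. The fold change of 12 of them moved by over 1.5 times, 4 without organoid 33.10 and 11 without 32.7. The log2 fold change in organoid 32.7 and in 33.10 alone was -3.72 and -5.84 for *C7*, -5.11 and -3.53 for *CCL21*, -4.24 and -2.33 for *ST6GALNAC5*, -2.55 and -3.35 for *CTNNA2*, -3.58 and -2.23 for *EFEMP1*, -2.27 and -3.34 for *INHBA*, -1.59 and -0.50 for *NR2F2*, 2.02 and 1.29 for *PODXL*, 2.73 and 1.10 for *PDPN*, and 4.33 and 2.65 for *HOXB1*. That of *COL9A1* was -2.97 in 32.7, and LUM-high cells of 33.10 had no UMI of it. Against cycling cells 14 of 40 moved by over 1.5 times, 6 without organoid 33.10 and 14 without 32.7, and *SEMA3D* alone reversed. The others were *CNTN5* (3.16 and 1.89), *PTPRD* (1.14 and 2.33), *NEK2* (-7.91 and -5.74), *DLGAP5* (-6.87 and -5.43), *KIF14* (-6.82 and -4.44), *CDC20* (-6.39 and -4.80), *CDCA2* (-6.46 and -4.50), *DEPDC1* (-6.02 and -5.04), *AURKB* (-5.93 and -5.00), *CCNA2* (-5.02 and -3.63), *RRM2* (-4.84 and -3.05), *TYMS* (-2.85 and -1.59) and *PIMREG*, with -5.82 in 32.7 and no UMI in LUM-high cells of 33.10. The p-values rest on the spread between 2 organoids, estimated in 1 fit of 6 cell classes. The 16 cycling cells in organoid 33.10 limit the comparison with cycling cells.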
